A study of Rattus with 9 samples.

Results

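The genes described here encode 38 potassium channel subunits of neurons: the pore-forming subunits of voltage-gated, calcium-activated, sodium-activated and two-pore-domain channels, and the auxiliary subunits that bind them. They were chosen by symbol from a list of such subunits, and all 38 were found among the 17378 identifiers of the deposited gene tables. Of the 38, 26 form pores, 3 are silent subunits that work only inside another channel, and 9 are auxiliary. RNA was sequenced from thoracic dorsal root ganglia, where the sensory neurons that supply the chest organs have their cell bodies, beside glia, vessels and immune cells. One group was 5 SD rats with myocardial infarction (MI) made by coronary ligation, and the other was 4 SD rats with sham surgery. Both were taken 8 weeks after the operation. The deposited tables name the MI group CHF. Each library is labelled as a separate rat, and neither sex nor age is given in the sources used here. The comparison asks whether transcripts of the ganglia differed after infarction.

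Potassium channels let potassium leave the neuron, which repolarises the membrane after an action potential and holds the resting potential negative. In sensory ganglia the voltage-gated families set the threshold and the rate of firing, the calcium-activated channels shape the afterhyperpolarisation, and the two-pore-domain channels carry background current. Loss of potassium current is known to raise the excitability of nociceptors. Pore subunits assemble as tetramers (dimers for the two-pore-domain family), mostly within a single family, so the make-up of a family matters as well as its total.

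Gene counts summed to between 5656582 and 6861355 per library, and the RNA integrity number lay between 8 and 8.5. All 15 pan-neuronal markers had reads, and their summed level was 40468 to 46447 CPM in MI rats, against 40541 to 43084 CPM in sham rats. The neurofilament genes Nefm, Nefl and Nefh made up most of that sum, with means of 12423.5, 9484 and 7600 CPM in MI rats. CPM, counts scaled to library size with TMM factors, are used below to compare rats, and the authors' RPKM values, which are scaled to gene length as well, to compare genes. After filterByExpr, a filter on low counts, 36 of the 38 genes were tested, with Kcng4 and Kcnmb1 left out. Values after ± are SDs over 5 MI and 4 sham rats throughout.

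Of the 38 genes, Kcnab2 had the highest level per length, with 70.8 ± 5.08 RPKM in MI and 70.6 ± 5.33 RPKM in sham ganglia (SD, n = 5 and 4). Kcna1 followed with 53.8 ± 5.21 RPKM in MI and 56.9 ± 6.62 RPKM in sham ganglia, then Kcnab1 with 49.8 ± 4.32 RPKM in MI and 48.2 ± 3.86 RPKM in sham ganglia, Kcnd1 with 45.3 ± 2.53 RPKM in MI and 44.8 ± 1.89 RPKM in sham ganglia and Kcna2 with 38.7 ± 2.14 RPKM in MI and 41.7 ± 3.08 RPKM in sham ganglia. The highest-ranking genes were therefore axonal Kv1 channels with their beta subunits, and the A-type channel gene Kcnd1. Mean RPKM over the 9 rats was at least 10 for 17 genes and under 1 for 3 genes, Kcnmb1, Kcnd2 and Kcng4. Of 37 neighbouring pairs in the order of levels, 34 had ranges over the 9 rats that overlapped, so their order is not fixed by these data. The ranges were separate between Kcnab2 and Kcna1, between Kcna4 (at least 6.34 RPKM) and Kcnc1 (at most 6.18 RPKM), and between Kcnk10 (at least 2.07 RPKM) and Kcnmb2 (at most 1.96 RPKM). RPKM depends on the length of the gene model. The deposited counts and RPKM values imply models of 708 bases (Kcnmb2) to 6818 bases (Kcnd3), and a model that is too short or too long would shift a gene's place. In the RefSeq annotation of the GRCr8 assembly, the spans of 6 of the 38 genes overlap that of a named gene. Kcnab2 overlaps Nphp4, Kcnip1 and Kcnmb1 overlap each other, Kcnd2 overlaps Kcnd2l1, and Kcnip4 and Kcnn2 overlap entries with pseudogene symbols. These spans include introns, and the reads were aligned to another assembly (rn6), so whether reads are shared was not tested. The labels do not say whether counting used strand. Any reads shared by such overlaps, those of the top-ranked Kcnab2 included, therefore cannot be told apart.

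**Figure D1:**
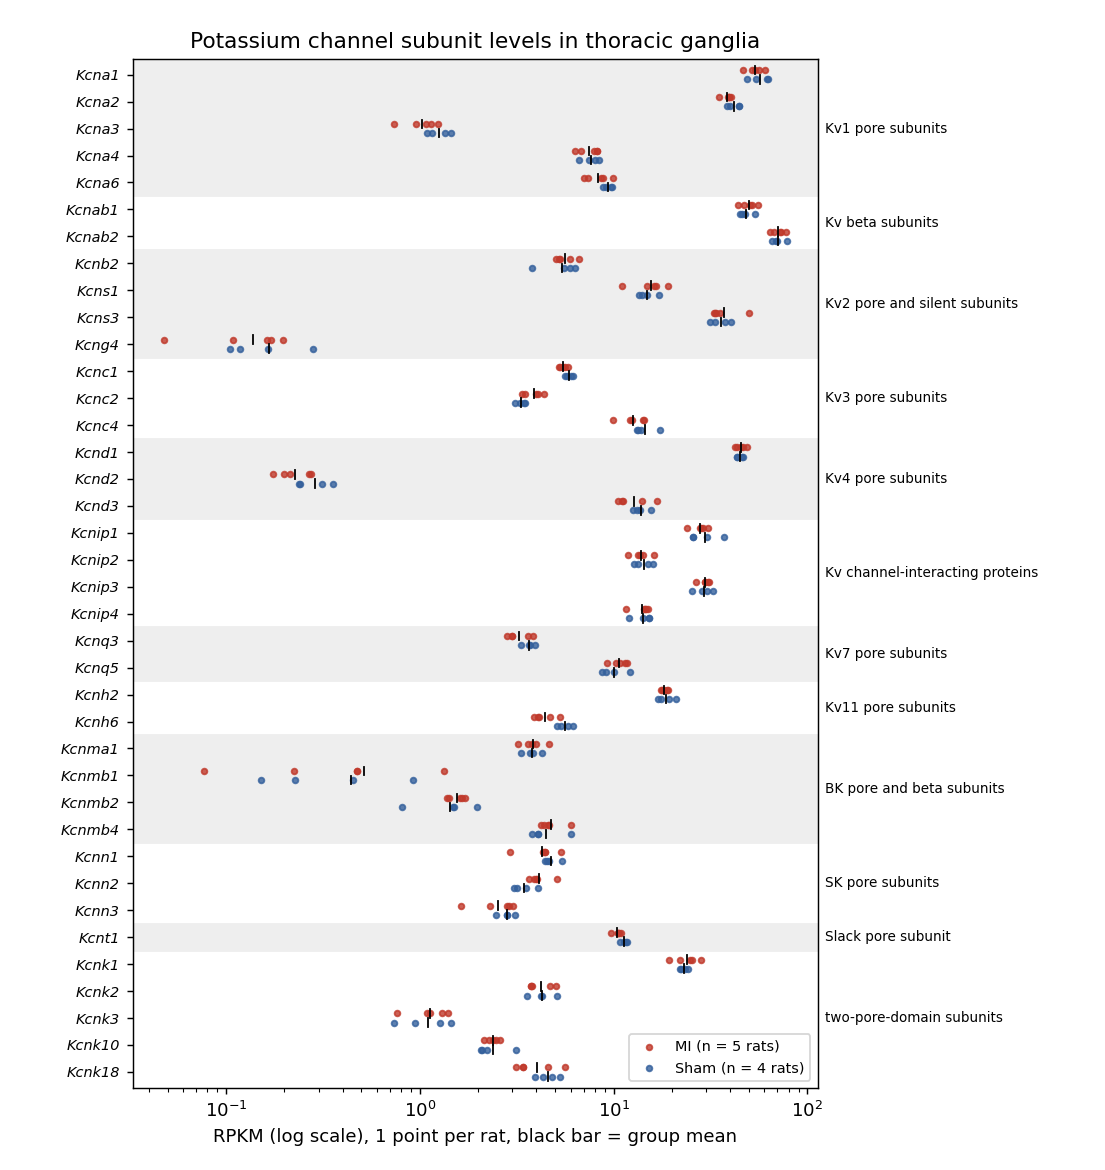
Level of each of the 38 potassium channel genes in RPKM on a log axis, with 1 point per rat (MI above sham, n = 5 and 4) and a black bar at the group mean. Levels span from Kcng4 at 0.151 RPKM to Kcnab2 at 70.8 RPKM over the 9 rats, while the MI and sham points of most genes lie close together. The points of Kcnmb1 (0.0768 to 1.33 RPKM) and Kcng4 (0.0477 to 0.282 RPKM) are spread widely.

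No potassium channel gene passed the threshold between MI and sham ganglia, where 0.0171% of all 11711 tested genes passed it (edgeR likelihood-ratio test, adjusted p under 0.05). Of the 36 tested genes, 14 had an edgeR log2 fold change above 0 and 22 below 0, with 49.2% of all tested genes below 0. The median log2 fold change was -0.03 over the 36 genes and 0.0017 over all tested genes, and the median absolute log2 fold change was 0.09 against 0.07. Kcnh6 had the smallest p, with an adjusted p of 0.431, and the other 35 had adjusted p-values of 0.9996 or more. At an unadjusted p under 0.05 the likelihood-ratio test had 1 of the 36 genes (4.64% of all tested genes) and the edgeR quasi-likelihood test 3 (5.14%), and the quasi-likelihood test called 0% of all genes after adjustment. One gene, Kcnt1, had all 5 MI rats below all 4 sham rats in CPM, where 0.905% of all tested genes lay that way, 0.837% had all MI above all sham, and 1.74% did not overlap in either direction. In bulk tissue, fewer cells of a type and less RNA per cell cannot be told apart for any of these genes. The count of genes with a log2 fold change below 0 ranged from 18 without Sham 2 to 26 without MI 4.

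The size of difference that the data allow varied with the level of the gene, and also between genes of like level. The 95% interval of the log2 fold change (limma-voom, not adjusted for the number of genes) included 0 for 34 of the 36 genes, and 5.19% of all tested genes had an interval without 0. It lay wholly within 0.5 on either side of 0 for 28 of the 36, against 79.1% of all tested genes. Among the abundant genes the interval was -0.10 to 0.12 for Kcnd1, -0.13 to 0.13 for Kcnab2, -0.10 to 0.19 for Kcnab1 and -0.17 to 0.10 for Kcnh2. It was wider for the abundant genes Kcnd3 (-0.39 to 0.11) and Kcns3 (-0.21 to 0.29). Among the low genes it reached -0.90 to 0.22 for Kcnd2 and -0.44 to 0.76 for Kcnmb2, so differences of either sign up to these bounds lie within the intervals.

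**Figure D2:**
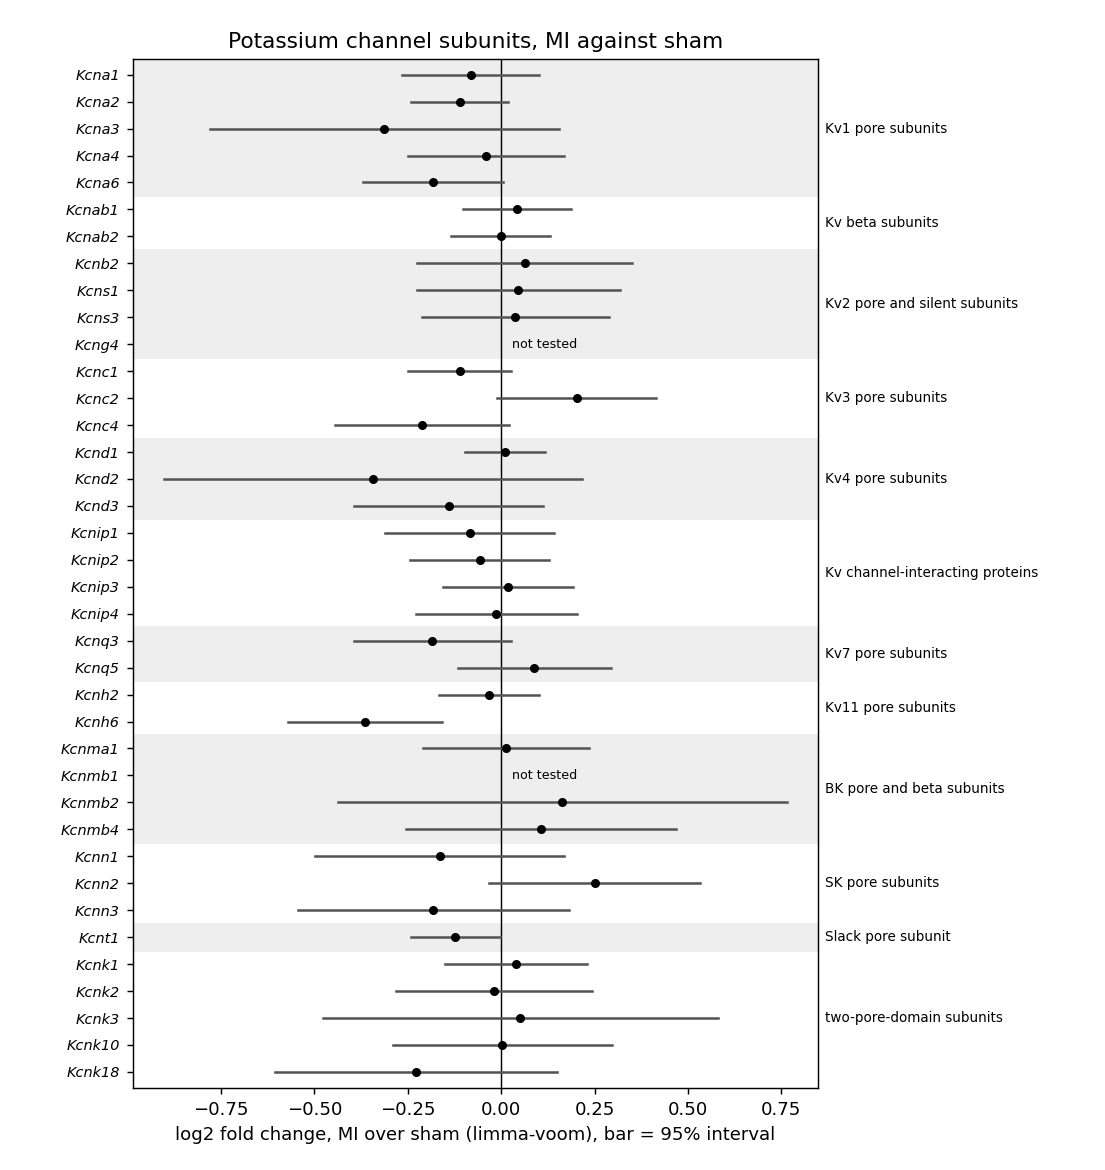
Log2 fold change of MI over sham for each gene, as a point with its limma-voom 95% interval, grouped by subfamily, with a vertical line at 0. The intervals of Kcnh6 (-0.57 to -0.16) and Kcnt1 (-0.24 to -0.0036) do not include 0; Kcng4 and Kcnmb1 were not tested.

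Kv1 channels are low-threshold channels of the axon that limit repetitive firing, and all 5 Kv1 pore genes described here had a lower mean in MI, none past the threshold. Their median log2 fold change was -0.11. Kcna1 stood at 155, 133, 149, 176 and 163 CPM in MI rats 1 to 5, against 183, 177, 141 and 158 CPM in sham rats 1 to 4. The groups overlapped across most of their range, with the highest value in Sham 1 and the lowest in MI 2 (log2 -0.08, SE 0.11). Its log2 fold change was -0.03 without Sham 1 and -0.16 without Sham 3. Kcna2, its usual partner beside the nodes of Ranvier, stood at 151, 132, 149, 151 and 154 CPM in MI rats 1 to 5, against 153, 169, 146 and 169 CPM in sham rats 1 to 4. Sham 2 and Sham 4 lay above every MI rat, and Sham 1 and Sham 3 among the MI rats (log2 -0.11, SE 0.06, 95% interval -0.24 to 0.02). Kcna6, a further Kv1 subunit, stood at 109, 80.8, 95.2, 97.9 and 77.9 CPM in MI rats 1 to 5, against 98.2, 108, 101 and 107 CPM in sham rats 1 to 4. MI 2 and MI 5 were the lowest, and MI 1 was the highest of all 9 (log2 -0.17, SE 0.11, 95% interval -0.37 to 0.0040). Kcna4, a fast-inactivating subunit known from small-diameter sensory neurons, averaged 38.6 ± 4.60 CPM in MI rats, against 39.4 ± 3.89 CPM in sham rats (log2 -0.03, SE 0.11). Kcna3, best known from lymphocytes and macrophages, was low at 3.22, 2.46, 2.98, 2.83 and 1.91 CPM in MI rats 1 to 5, against 3.03, 3.48, 3.79 and 2.87 CPM in sham rats 1 to 4, or 13 to 24 reads per library. MI 5 was the lowest and the groups overlapped (log2 -0.30, SE 0.15, 95% interval -0.78 to 0.15), and the log2 fold change was -0.20 without MI 5. Macrophage markers, given beside it because of that known source, summed to 291 to 405 CPM in MI rats, against 276 to 419 CPM in sham rats, and 10 of 12 had a higher mean in MI. An unadjusted likelihood-ratio p under 0.05 was found for 4 of the 12 (4.64% of all tested genes), and none passed the threshold. Their part in the level of Kcna3 was not tested.

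The Kv beta subunits bind the inner face of Kv1 channels, where the product of Kcnab1 speeds inactivation and that of Kcnab2 aids transport to the axon. Kcnab2 stood at 203, 175, 169, 193 and 190.4 CPM in MI rats 1 to 5, against 174, 204, 184 and 182 CPM in sham rats 1 to 4. The group means were nearly equal (log2 -8.6e-05, SE 0.07, 95% interval -0.13 to 0.13). Kcnab1 averaged 287 ± 25.5 CPM in MI rats, against 278 ± 21.0 CPM in sham rats (log2 0.04, SE 0.08), with MI 4 the highest and MI 5 the lowest of the 9 rats. The summed RPKM of the Kv beta genes over that of the 5 Kv1 pore genes was 1.11 ± 0.0744 in MI and 1.02 ± 0.0681 in sham ganglia (SD, n = 5 and 4), with MI rats from 1.05 to 1.23 and sham rats from 0.937 to 1.09. The ranges overlapped.

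Kcnb2 encodes a Kv2 delayed rectifier, and Kcns1, Kcns3 and Kcng4 encode silent subunits that form no channel alone and alter Kv2 channels they join. The 3 tested genes had means slightly higher in MI, with log2 fold changes of 0.05 (Kcns3) to 0.06 (Kcns1) and none past the threshold. Kcns3 stood at 128, 127, 136, 193 and 126 CPM in MI rats 1 to 5, against 145, 127, 120.1 and 155 CPM in sham rats 1 to 4. MI 4 lay above the other 8 rats, and the remaining MI rats lay within the sham range. Without MI 4 the log2 fold change was -0.08, against 0.05 (SE 0.15) with it. Kcns1, at 69.4 ± 12.9 CPM in MI rats, against 66.5 ± 7.32 CPM in sham rats (log2 0.06, SE 0.16), had its extremes in MI 3 at 49.5 CPM and MI 5 at 84.8 CPM. Kcnb2 averaged 30.1 ± 3.63 CPM in MI rats, against 28.9 ± 5.97 CPM in sham rats (log2 0.06, SE 0.17), with the lowest value, 20.3 CPM, in Sham 1, and its log2 fold change was -0.08 without that library. The silent subunit gene Kcns3 exceeded the pore gene Kcnb2 in RPKM by a ratio of 6.62 ± 1.23 in MI and 6.92 ± 2.10 in sham ganglia (SD, n = 5 and 4). Kcng4 had 2, 8, 7, 7 and 5 reads in MI rats 1 to 5 and 4, 5, 7 and 12 reads in sham rats 1 to 4, and was not tested.

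Kv3 channels open at high voltage and close fast, which allows brief spikes and rapid firing. Kcnc2 had a higher mean in MI while Kcnc1 and Kcnc4 had lower means, and none passed the threshold. Kcnc2 stood at 20.6, 24.0, 26.9, 25.1 and 21.3 CPM in MI rats 1 to 5, against 20.3, 18.8, 21.3 and 21.0 CPM in sham rats 1 to 4. MI 2, MI 3 and MI 4 lay above every sham rat, while MI 1 and MI 5 lay in the sham range (log2 0.21, SE 0.09, 95% interval -0.01 to 0.41). Kcnc4, an inactivating Kv3 subunit known from nociceptors, stood at 66.5, 56.7, 67.2, 58.9 and 46.3 CPM in MI rats 1 to 5, against 63.6, 81.3, 61.8 and 65.6 CPM in sham rats 1 to 4. MI 5 was the lowest and Sham 2 the highest, with the other 7 rats between 56.7 and 67.2 CPM (log2 -0.20, SE 0.13). Without Sham 2 its log2 fold change was -0.11. Kcnc1 stood at 36.9, 37.9, 34.2, 34.8 and 36.1 CPM in MI rats 1 to 5, against 38.3, 40.3, 37.0 and 39.8 CPM in sham rats 1 to 4. These values were close together, and only MI 2 lay above any sham rat (log2 -0.11, SE 0.04, 95% interval -0.25 to 0.03). Of the summed RPKM of these 3 genes, Kcnc2 made up 17.7% ± 1.73 in MI and 14.2% ± 1.76 in sham ganglia (SD, n = 5 and 4), with 14.6% to 18.8% in MI rats and 11.6% to 15.7% in sham rats. MI 1 was the only MI rat within the sham range.

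Kv4 channels carry the fast A-type current that delays firing, and the Kv channel-interacting proteins (KChIPs) are calcium-binding partners that raise their surface level and tune their gating. Neither the Kv4 pore genes nor the KChIP genes had a member past the threshold. Kcnd1 stood at 278, 264, 285, 302 and 260.2 CPM in MI rats 1 to 5, against 267, 285, 283 and 267 CPM in sham rats 1 to 4. The groups overlapped (log2 0.01, SE 0.05, 95% interval -0.10 to 0.12, the narrowest of the 3 Kv4 genes). Kcnd3 averaged 143 ± 30.04 CPM in MI rats, against 156 ± 13.7 CPM in sham rats (log2 -0.12, SE 0.16), with MI 1 the highest rat at 189 CPM and MI 5 the lowest at 119 CPM. Without MI 1 its log2 fold change was -0.24. Kcnd2, the main Kv4 gene of many central neurons, was low here with 7 to 11 reads in MI and 9 to 15 reads in sham libraries (log2 -0.35, SE 0.16). Kcnd1 made up 77.9% ± 3.40 in MI and 76.1% ± 1.255 in sham ganglia of the Kv4 RPKM (SD, n = 5 and 4), and Kcnd2 made up 0.386% ± 0.0553 in MI and 0.485% ± 0.0837 in sham ganglia.

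Kcnip3, whose product is also known as the transcriptional repressor DREAM, stood at 40.1, 39.8, 41.8, 42.5 and 35.9 CPM in MI rats 1 to 5, against 38.8, 43.6, 34.5 and 41.1 CPM in sham rats 1 to 4. The groups overlapped fully (log2 0.02, SE 0.08). Kcnip4 stood at 30.7, 31.0, 31.1, 32.3 and 24.6 CPM in MI rats 1 to 5, against 30.6, 32.1, 25.4 and 32.5 CPM in sham rats 1 to 4. MI 5 and Sham 3 were the low rats, and the rest lay between 30.6 and 32.5 CPM (log2 -0.01, SE 0.11). Kcnip2 averaged 107 ± 12.4 CPM in MI rats, against 111 ± 11.4 CPM in sham rats (log2 -0.05, SE 0.11). Kcnip1 averaged 79.0 ± 6.89 CPM in MI rats, against 84.4 ± 15.7 CPM in sham rats (log2 -0.10, SE 0.13), with Sham 4 at 106 CPM the highest rat; without Sham 4 its log2 fold change was 0.03. By RPKM, Kcnip3 and Kcnip1 each made up about the same part of the KChIP total, 34.7% ± 1.10 in MI and 33.5% ± 2.19 in sham ganglia for Kcnip3 and 32.6% ± 1.10 in MI and 33.9% ± 3.88 in sham ganglia for Kcnip1. The KChIP sum over the Kv4 sum was 1.47 ± 0.0868 in MI and 1.49 ± 0.191 in sham ganglia (SD, n = 5 and 4).

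Kv7 subunits form the M-current, a slow brake on firing that inflammatory mediators close. Of the 2 described here, Kcnq3 had a lower and Kcnq5 a higher mean in MI, and neither passed the threshold. Kcnq3 stood at 36.7, 28.3, 28.7, 35.0 and 27.0 CPM in MI rats 1 to 5, against 32.1, 37.5, 34.9 and 35.5 CPM in sham rats 1 to 4. MI 2, MI 3 and MI 5 lay below every sham rat, and MI 1 and MI 4 within the sham range (log2 -0.17, SE 0.11, 95% interval -0.39 to 0.03). Kcnq5 stood at 74.02, 67.3, 71.8, 64.8 and 57.9 CPM in MI rats 1 to 5, against 55.6, 76.4, 57.5 and 63.4 CPM in sham rats 1 to 4. Sham 1 was the lowest rat and Sham 2 the highest, so the sham rats spanned the MI range (log2 0.09, SE 0.11). Its log2 fold change was 0.03 without Sham 1 and 0.19 without Sham 2. Kcnq5 exceeded Kcnq3 in RPKM by a ratio of 3.32 ± 0.401 in MI and 2.74 ± 0.256 in sham ganglia (SD, n = 5 and 4), with overlapping ranges of 2.82 to 3.80 in MI and 2.51 to 3.11 in sham rats.

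Kv11 channels (the ERG family) recover from inactivation as the membrane repolarises, and neither of the 2 described here passed the threshold. Kcnh2 is the ERG gene of the heart, and it stood at 121, 112, 114, 124 and 116 CPM in MI rats 1 to 5, against 109.9, 134, 112 and 125 CPM in sham rats 1 to 4. Its groups overlapped (log2 -0.04, SE 0.07, 95% interval -0.17 to 0.10). Kcnh6, an ERG gene known from neurons, stood at 26.4, 29.1, 22.8, 21.8 and 23.0 CPM in MI rats 1 to 5, against 30.3, 34.5, 32.6 and 28.8 CPM in sham rats 1 to 4. MI 1, MI 3, MI 4 and MI 5 lay below every sham rat, and MI 2 lay just above Sham 4. The log2 fold change was -0.36 (SE 0.10, edgeR likelihood-ratio adjusted p = 0.431, quasi-likelihood adjusted p = 0.920), with a 95% interval of -0.57 to -0.16. The adjusted p over 22 alternatives ranged from 0.0976 with 1 common dispersion to 0.9999 without Sham 2, and the log2 fold change from -0.42 to -0.30. In the authors' deposited table Kcnh6 had a fold change of 0.779 and an adjusted p of 0.222. Kcnh7, the ERG gene outside the 38, averaged 69.0 ± 8.71 CPM in MI rats, against 71.3 ± 2.85 CPM in sham rats. Of the summed RPKM of Kcnh2 and Kcnh6 alone, without Kcnh7, Kcnh6 made up 19.4% ± 2.31 in MI and 23.2% ± 1.73 in sham ganglia (SD, n = 5 and 4), with 16.8% to 23.0% in MI rats and 21.0% to 25.0% in sham rats.

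**Figure D3:**
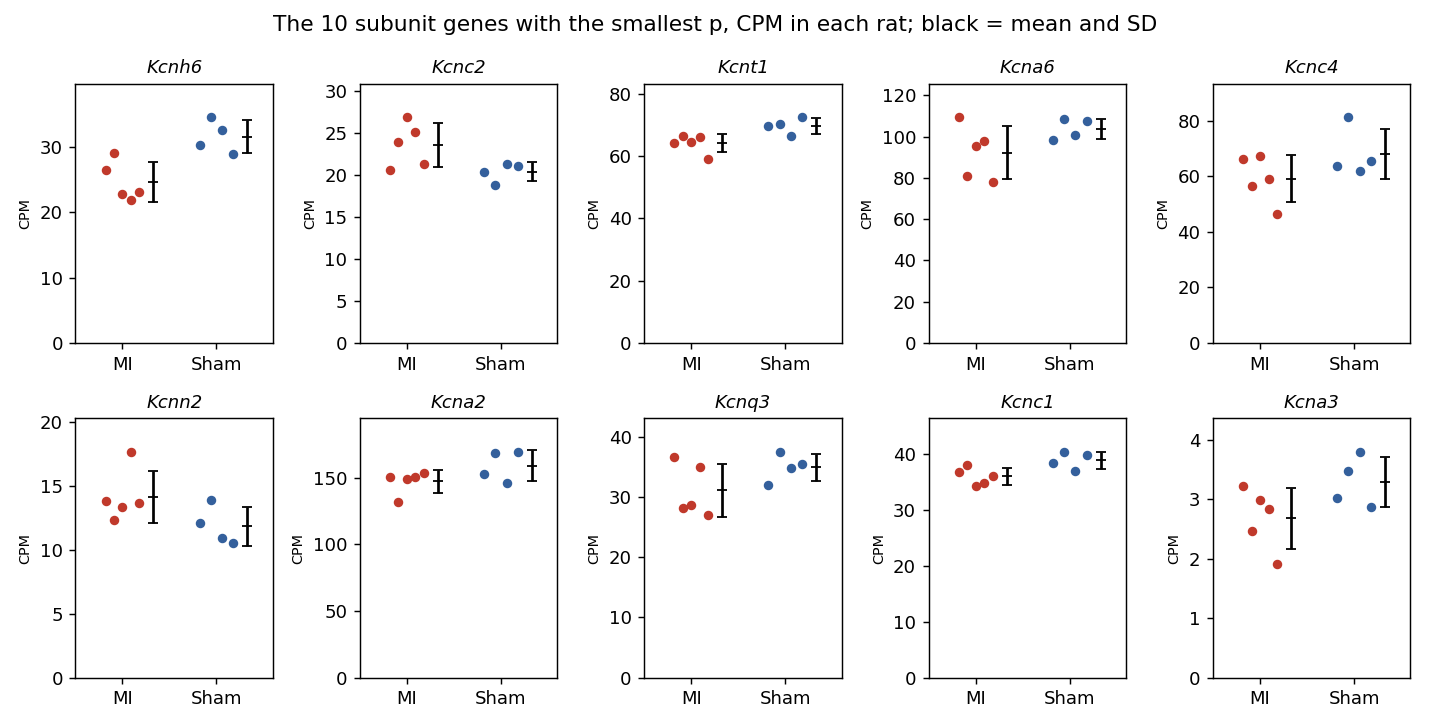
CPM of the 10 potassium channel genes with the smallest likelihood-ratio p, with 1 point per rat, each axis starting at 0, and the mean and SD in black (MI left of sham, n = 5 and 4). For Kcnt1 the MI rats end at 66.36 CPM and the sham rats begin at 66.37 CPM; in the other 9 genes the groups overlap.

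Among calcium-activated channels, the large-conductance (BK) channel is formed by Kcnma1 and tuned by beta subunits, and no BK gene passed the threshold. Kcnma1 averaged 34.6 ± 4.74 CPM in MI rats, against 34.0 ± 3.44 CPM in sham rats (log2 0.02, SE 0.12), with MI 1 the highest and MI 2 the lowest rat. Kcnmb4, the beta subunit typical of neurons, stood at 7.08, 7.56, 10.1, 7.33 and 7.77 CPM in MI rats 1 to 5, against 10.2, 6.80, 6.80 and 6.37 CPM in sham rats 1 to 4. MI 3 and Sham 1 stood about level with each other and apart from the remaining 7 rats (log2 0.09, SE 0.16). Without Sham 1 its log2 fold change was 0.26. Kcnmb2, an inactivating beta subunit, had 10 to 12 reads in MI and 6 to 13 reads in sham libraries (log2 0.11, SE 0.20). Kcnmb4 made up 69.7% ± 4.90 in MI and 71.3% ± 5.11 in sham ganglia of the RPKM of the 3 beta genes (SD, n = 5 and 4).

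Kcnmb1, the beta subunit known from smooth muscle, had 1, 6, 3, 6 and 19 reads in MI rats 1 to 5 and 11, 2, 6 and 3 reads in sham rats 1 to 4. MI 5 and Sham 1 were the high libraries, 1 in each group. The 10 smooth muscle and pericyte markers had summed levels of 319, 405, 380, 316 and 470 CPM in MI rats 1 to 5 and 318, 282, 332 and 276 CPM in sham rats 1 to 4. The sum was highest in MI 5, the library with most Kcnmb1 reads. Of these markers, 8 had a higher mean in MI, 5 had an unadjusted likelihood-ratio p under 0.05 (4.64% of all tested genes), and 2 had all MI rats above all sham rats (0.837% of all tested genes). Those 2 were Myh11, the smooth muscle myosin heavy chain, and Cnn1, a calponin of smooth muscle. Myh11 averaged 83.2 ± 17.9 CPM in MI rats, against 53.0 ± 9.97 CPM in sham rats (log2 0.65, SE 0.19, edgeR likelihood-ratio adjusted p = 0.0635). None of the 10 passed the threshold. Their part in the Kcnmb1 reads was not tested. Kcnmb1 is also the gene whose span overlaps Kcnip1, as given above.

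Small-conductance (SK) channels are opened by calcium alone and drive the medium afterhyperpolarisation. Kcnn2 had a higher mean in MI and Kcnn1 and Kcnn3 lower means, none past the threshold. Kcnn2 stood at 13.8, 12.3, 13.4, 17.7 and 13.6 CPM in MI rats 1 to 5, against 12.1, 13.9, 10.9 and 10.5 CPM in sham rats 1 to 4. MI 4 was the highest rat, and the other MI rats reached from 12.3 to 13.8 CPM, within the sham range (log2 0.25, SE 0.12, 95% interval -0.03 to 0.53). Without MI 4 the log2 fold change was 0.16. Kcnn1 stood at 14.3, 7.72, 11.8, 11.8 and 11.4 CPM in MI rats 1 to 5, against 14.6, 12.3, 12.01 and 11.8 CPM in sham rats 1 to 4. MI 2 was far lower than the other 8 rats (log2 -0.15, SE 0.17), and without it the log2 fold change was -0.04. Kcnn3, at 10.4 ± 2.35 CPM in MI rats, against 11.6 ± 1.08 CPM in sham rats (log2 -0.16, SE 0.19), had its lowest value in MI 3, and its log2 fold change was -0.03 without MI 3. Each of the MI rats 2, 3 and 4 therefore held an extreme value of a different SK gene. Within the SK total, Kcnn2 made up 37.8% ± 2.83 in MI and 31.4% ± 2.77 in sham ganglia (SD, n = 5 and 4), with 34.5% to 41.3% in MI rats and 29.1% to 35.4% in sham rats.

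Kcnt1 encodes Slack, a channel opened by intracellular sodium that limits bursts of firing. It stood at 64.4, 66.36, 64.6, 66.3 and 59.2 CPM in MI rats 1 to 5, against 69.7, 70.5, 66.37 and 72.5 CPM in sham rats 1 to 4. All MI rats lay below all sham rats, with MI 2 and Sham 3 almost level. In RPKM, which has no TMM scaling, the groups overlapped, with 9.67 to 10.9 RPKM in MI and 10.8 to 11.7 RPKM in sham rats. The log2 fold change was -0.12 (SE 0.04, edgeR likelihood-ratio adjusted p = 0.9996), and it lay between -0.15 and -0.09 under 22 alternatives.

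Two-pore-domain channels carry the background potassium current of sensory neurons, and none of the 5 genes described here passed the threshold. Kcnk1, a weak inward rectifier, stood at 91.7, 103, 81.2, 118 and 106 CPM in MI rats 1 to 5, against 93.2, 96.9, 101 and 94.1 CPM in sham rats 1 to 4. The MI rats spread more widely than the sham rats, with MI 3 the lowest and MI 4 the highest of all 9 (log2 0.05, SE 0.11). Kcnk2 and Kcnk10 encode channels opened by stretch, heat and fatty acids. Kcnk10 stood at 10.8, 12.3, 13.2, 12.2 and 11.4 CPM in MI rats 1 to 5, against 10.7, 15.8, 10.4 and 11.3 CPM in sham rats 1 to 4. Sham 2 was the highest rat, and without it the log2 fold change was 0.15, against -0.01 (SE 0.13) with it. Kcnk2 averaged 22.6 ± 3.28 CPM in MI rats, against 23.1 ± 3.45 CPM in sham rats (log2 -0.03, SE 0.14). Kcnk18, a calcineurin-regulated channel of sensory neurons, averaged 8.84 ± 2.33 CPM in MI rats, against 10.1 ± 1.27 CPM in sham rats (log2 -0.20, SE 0.19), with MI 1 the highest rat at 12.4 CPM and MI 5 the lowest at 6.89 CPM. Without MI 1 its log2 fold change was -0.35. Kcnk3, an acid-sensitive channel, was low with 16 to 30 reads in MI and 14 to 31 reads in sham libraries (log2 0.04, SE 0.24). Kcnk1 made up 66.8% ± 5.19 in MI and 65.0% ± 0.640 in sham ganglia of the RPKM of the 5 genes (SD, n = 5 and 4).

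Shares were taken among the described genes of each family. A family may hold further genes that these totals leave out. For each of 39 such shares and each of 13 summed RPKM values, the MI and sham ranges overlapped. The 3 silent subunit genes entered both with Kcnb2 and on their own, the BK beta genes without Kcnma1, and Kcnt1 alone as a sum. Shares within a family depend on each other, so the 39 are not separate results. The total of the 5 Kv1 genes was 96.7 to 118 RPKM in MI and 105 to 125.5 RPKM in sham rats, of which Kcna1 made up 49.2% ± 1.81 in MI and 48.6% ± 3.07 in sham ganglia and Kcna2 35.4% ± 1.249 in MI and 35.7% ± 1.79 in sham ganglia (SD, n = 5 and 4).

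**Figure D4:**
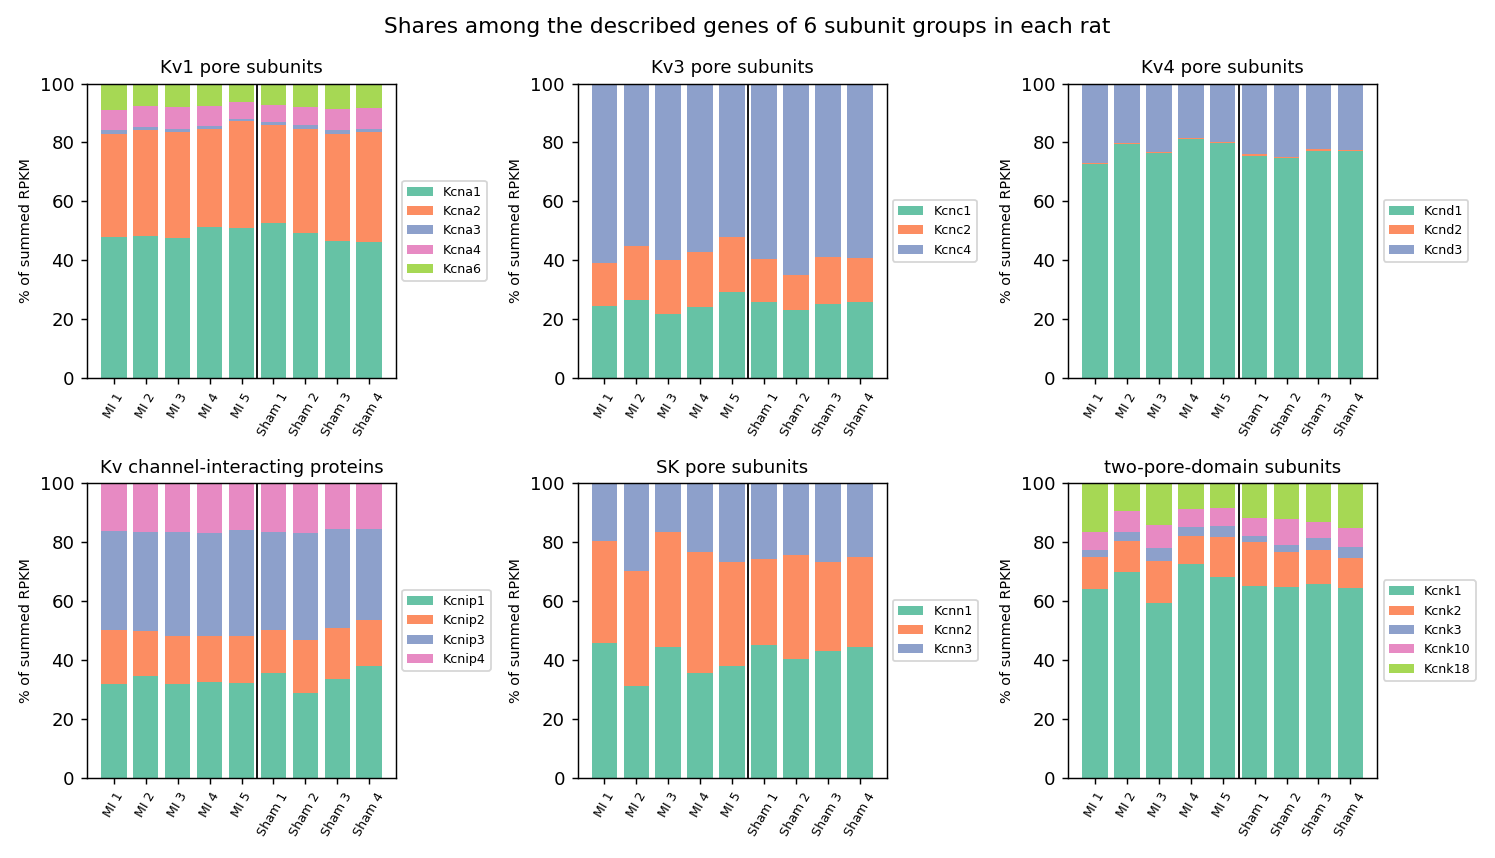
Share of each gene, in percent of the summed RPKM of the described genes of its family, in each MI rat (left of the line) and each sham rat (right of it), for 6 families. Kcna1 and Kcna2 fill most of the total of the 5 Kv1 genes, Kcnd1 most of the Kv4 total and Kcnk1 most of the total of the 5 two-pore-domain genes in every rat.

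Individual rats differed in which genes were high. The biological coefficient of variation from the edgeR dispersions had a median of 9.36% over the 36 tested genes and 7.66% over all tested genes. Among genes between 30 and 100 CPM it was 8.76% for 13 potassium channel genes and 6.36% for all 3747 genes, and from 100 CPM upwards it was 7.29% for 9 and 5.43% for 2266. Between 1 and 3 CPM it was 13.2% for 3 potassium channel genes and 18.5% for 679 genes, the other way round. Of the 36 genes, Kcnc1 had the lowest value, 4.66%, and Kcnk3 the highest, 16.6%. Averaged over the 36 genes, log2 CPM relative to the mean of the 9 rats was 0.05, -0.09, -0.01, 0.05 and -0.10 in MI rats 1 to 5, and -0.01, 0.09, -0.0032 and 0.03 in sham rats 1 to 4. MI 5 had 10 of the 36 genes above the mean and Sham 2 had 28, the fewest and the most.

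**Figure D5:**
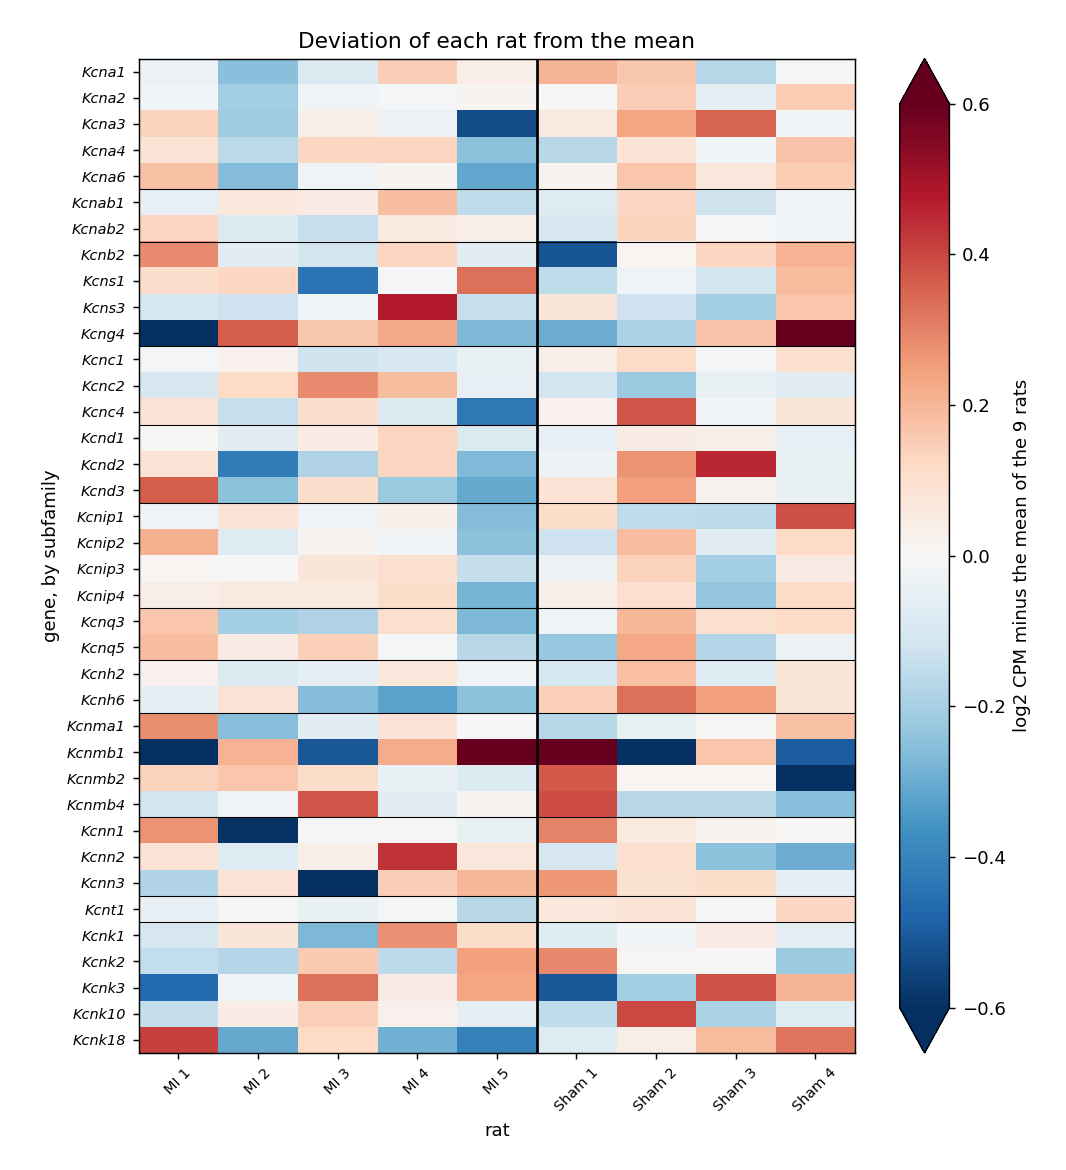
Log2 CPM of each gene minus its mean over the 9 rats, with MI rats left of the thick line and sham rats right of it, and red for higher values. MI 5 has mostly blue cells (10 of 36 tested genes above the mean) and Sham 2 mostly red cells (28 of 36).

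Markers of several cell types also differed between these rats. The 8 peptidergic nociceptor markers summed to 2076.5, 1626, 1810.2, 1923 and 1547 CPM in MI rats 1 to 5 and to 1799, 1792, 2009 and 1979 CPM in sham rats 1 to 4. The 7 non-peptidergic markers found summed to 2165, 1666, 1898, 1839 and 1526 CPM in MI rats and to 1876, 2129.7, 1951 and 2034 CPM in sham rats. MI 5 was the lowest rat in both sums. It was also the highest in the sum of the 10 Schwann cell and myelin markers, which was 9581 to 15146 CPM in MI and 11504 to 14473 CPM in sham rats. The 11 large-diameter neuron markers found summed to 9972 to 11302 CPM in MI and 10271 to 10917 CPM in sham rats, the 10 endothelial markers to 299 to 439 and 289.9 to 421 CPM, and the 9 satellite glia markers to 5491 to 6346 and 5507 to 6367 CPM. Single genes made up most of 2 of these sums. They were Nefh in the large-diameter sum (mean 7600 CPM in MI rats) and Apoe in the satellite glia sum (mean 4211 CPM in MI rats). No marker found was at 0 in all libraries, and none passed the threshold. The mean was higher in MI for 8 of 15 pan-neuronal, 3 of 11 large-diameter, 0 of 8 peptidergic, 1 of 7 non-peptidergic, 7 of 10 endothelial, 3 of 9 satellite glia and 0 of 10 Schwann cell markers. An unadjusted likelihood-ratio p under 0.05 was found for 1 marker in each of these lists except the non-peptidergic one, which had 0. The share over all tested genes was 4.64%. Trpa1, an irritant-gated channel on the peptidergic list, had all MI rats below all sham rats, where 0.905% of all tested genes lay that way. Its log2 fold change was -0.40 (SE 0.16, edgeR likelihood-ratio adjusted p = 0.455). The part of these differences in the potassium channel values was not tested here.

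Other potassium channel genes, taken from lists that do not hold the 38, had no gene past the threshold either. Of 48 further pore genes 32 were tested, 15 higher and 17 lower in MI, with a median log2 fold change of -0.04. An unadjusted likelihood-ratio p under 0.05 was found for 3 of the 32, and for 4.64% of all tested genes. The smallest p-values belonged to Kcnj8, a pore subunit of ATP-sensitive channels in vascular mural cells, and Kcnk13, a two-pore-domain gene. Kcnj8 had a log2 fold change of 1.08 (SE 0.16, edgeR likelihood-ratio adjusted p = 0.329). Kcnk13 had 1.77, 2.14, 1.88, 2.165 and 1.61 CPM in MI rats 1 to 5 and 1.07, 1.11, 0.790 and 0.956 CPM in sham rats 1 to 4. For both genes all MI rats lay above all sham rats at a low level, where 0.837% of all tested genes lay that way. For Kcnk13 the log2 fold change was 0.95 (SE 0.11, edgeR likelihood-ratio adjusted p = 0.771). Of 18 further auxiliary genes 10 were tested, 6 higher and 4 lower, and the smallest p-values were those of Abcc8, a sulfonylurea receptor subunit (log2 -0.24), and Dpp10, a Kv4 partner (log2 0.09). Of 13 genes that cluster Kv1 channels or build the axon initial segment, 11 were tested, 7 higher and 4 lower. Sptbn4, a spectrin of the initial segment, had a log2 fold change of -0.14 (SE 0.05) and Cntn2, the contactin that holds Kv1 channels beside the node, -0.15 (SE 0.08), both with an adjusted p of 0.9996.

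The authors' deposited table lists 8000 genes, of which 27 are among the 38. The largest p it lists is 0.712, so genes with a larger p are missing from it. Shares of that list are therefore not shares of all genes tested. None of the 27 passed an adjusted p of 0.05 there, where 0.75% of the 8000 did. Kcnh6, Kcnc4 and Kcna6, or 3 of the 27, had unadjusted p-values under 0.05, as did 7.22% of all genes listed there. The deposited fold changes of Kcnc4 and Kcna6 were 0.866 and 0.887, with adjusted p-values of 0.701 and 0.797.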

How the data were processed

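Poly-A RNA from thoracic ganglia of 5 MI and 4 sham rats was sequenced as 75 bp reads. Per the series' design text, reads were demultiplexed (bcl2fastq 2.16.0.10), trimmed with cutadapt, aligned to rn6 with STAR 2.3.0 and summarised against Partek 6.6 annotations. The deposited read counts per gene were rounded by the authors from estimated counts, which are deposited too. The deposited RPKM values divide those counts by gene length and by all reads of the library, as the deposited read totals show. The authors' test table gives TMM-scaled CPM, linear fold changes (a ratio, MI over sham), the mean log2 CPM, and p-values raw and adjusted, per the file headers. Deposited percent values of reads by region, and the RNA integrity score, describe the libraries.

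Counts were fitted in R 4.3.3 with edgeR 4.0.16 over all 11711 genes kept by filterByExpr, using TMM, tagwise dispersions and the likelihood-ratio test that the series' design text names, with Benjamini-Hochberg adjustment over all tested genes at a threshold of 0.05. The quasi-likelihood test, DESeq2 1.42.0 and limma 3.58.1 were alternatives. Each SE comes from the pooled spread of log2 CPM (prior count 2) within the groups, a separate quantity from edgeR's own coefficient error. The fits were tested on simulated data. A blank row without counts (1 row) was left out, and 26 date-like identifiers stayed in the fits unnamed. Strand use in counting was not stated. Copies of gene families may share reads. The 38 genes, the lists and the tests were chosen with earlier results of these data known. Values in every rat are given for the 10 genes with the smallest p, the gene with the highest RPKM of each family and genes with a library far from its group. In each list of other channel genes the 2 genes with the smallest p are named.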

Additional observations from a re-analysis of the deposited data

Results flagged for a closer look

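In 9 of 100 groups of libraries, 1 library was set apart from the others by a wide gap at the top or bottom of the group's range (Dixon's gap ratio). Chance gives about 1 in 20, or 5, for independent groups of normally distributed values. The groups share the same 9 libraries and some lists share genes, so 9 against 5 cannot show an excess. Of the 9 flagged, 8 were among the 76 groups of the 38 potassium channel genes. Kcna2 was low in MI 2 at 132 CPM, with 149 to 154 CPM in the other MI rats. Kcns3 was high in MI 4 at 192 CPM, with 126 to 136 CPM in the other MI rats. Kcnip4 was low in MI 5 at 24.6 CPM, with 30.7 to 32.3 CPM in the other MI rats. Kcnmb4 was high in MI 3 at 10.1 CPM, with 7.08 to 7.77 CPM in the other MI rats. Kcnmb4 was high in Sham 1 at 10.2 CPM, with 6.37 to 6.80 CPM in the other sham rats. Kcnn2 was high in MI 4 at 17.6 CPM, with 12.3 to 13.8 CPM in the other MI rats. Kcnt1 was low in MI 5 at 59.2 CPM, with 64.4 to 66.4 CPM in the other MI rats. Kcnk10 was high in Sham 2 at 15.8 CPM, with 10.4 to 11.3 CPM in the other sham rats. The summed level of the satellite glia markers was high in Sham 1 at 6367 CPM, with 5507 to 5565 CPM in the other sham rats. Apoe, the largest part of that sum, was 4552 CPM in Sham 1 and 3921 to 3953 CPM in the other sham rats. Of the other glia markers, Slc1a3, Ednrb and Cdh19 were not highest in Sham 1 among the sham rats. MI 4 and MI 5 each held 2 of the flagged values and Sham 1 held 2.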

How the results depend on the processing

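No potassium channel gene passed the threshold in any of 22 alternatives, 13 that changed the test, scaling, filter, unit or pairing and 9 that left out 1 library. The number of genes called over the whole table, 2 as reported, was 0 by the quasi-likelihood test, limma-voom and both RPKM fits, 70 with 1 common dispersion, 4 with upper-quartile factors, 6 with no low-count filter, 11 with the replicate block (rats 1 to 4) and 2 to 8 without 1 library. The labels do not say whether rats of the same number were paired. Deviations of same-numbered MI and sham rats correlated at -0.132, -0.137, 0.0363 and 0.0916, and no MI rat correlated best with its own number. Such weak correlations of deviations from group means cannot decide whether the animals were paired. The median log2 fold change of the 36 genes was -0.03 as reported, and -0.0765 to -0.00566 without 1 library. Of the 36 genes, 17 kept their direction in all 22 alternatives, and the 19 that turned had a reported log2 fold change of at most 0.11 in size. The turned log2 fold changes were Kcnk10 0.00249 by limma-voom, Kcnab2 7.44e-05 with 1 common dispersion, Kcnab2 0.0103 with upper-quartile factors. Further ones were Kcnab2 0.00142 with library size only, Kcnab2 0.000209 with no low-count filter, Kcnab2 0.00404 and Kcnk10 0.0113 in log2(RPKM + 0.1) with limma, Kcnab2 0.00399 and Kcnk10 0.00512 in log2(RPKM + 1) with limma. With the block the values were Kcna4 0.0239, Kcns1 -0.0300, Kcnip2 0.00129, Kcnip4 0.0569, Kcnk3 -0.00859 and Kcnk10 0.0163. Of the 17, those moved by over 1.5 times without 1 library ranged from -0.16 to -0.0309 for Kcna1, -0.38 to -0.20 for Kcna3, -0.26 to -0.11 for Kcnc4, -0.44 to -0.23 for Kcnd2, -0.24 to -0.059 for Kcnd3, 0.03 to 0.19 for Kcnq5, -0.24 to -0.037 for Kcnn1, 0.16 to 0.34 for Kcnn2, -0.23 to -0.0334 for Kcnn3, -0.35 to -0.12 for Kcnk18. For the genes that turned without 1 library, the log2 fold change ranged from -0.0892 to 0.0225 for Kcna4, -0.00161 to 0.0949 for Kcnab1, -0.033 to 0.0469 for Kcnab2, -0.0773 to 0.14 for Kcnb2, -0.0218 to 0.16 for Kcns1, -0.0837 to 0.12 for Kcns3, -0.0217 to 0.0347 for Kcnd1. It ranged from -0.17 to 0.0276 for Kcnip1, -0.12 to 0.00158 for Kcnip2, -0.0486 to 0.0678 for Kcnip3, -0.0898 to 0.0531 for Kcnip4, -0.0747 to 0.0204 for Kcnh2, -0.0547 to 0.0822 for Kcnma1, -0.0855 to 0.29 for Kcnmb2. For the last genes it ranged from -0.0106 to 0.26 for Kcnmb4, -0.0164 to 0.12 for Kcnk1, -0.11 to 0.0692 for Kcnk2, -0.10 to 0.20 for Kcnk3, -0.0819 to 0.15 for Kcnk10. The cause was not tested. Genes of under 30 reads per library, such as Kcnd2 and Kcna3, had wide intervals.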
